A study of Mus musculus with 8 samples.

Results

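The genes described here are the transcripts by which cells brake the RAS-ERK pathway, together with the normal copies of the genes that are joined in the BCR-ABL oncogene. The list named 9 genes: Dusp6, Dusp4, Dusp5, Spry1, Spry2, Spred1, Phlda1, Bcr and Abl1. A gene was taken as measured where a probe set was annotated to its symbol alone, and the brightest such probe set, by its mean across the 8 arrays, gave its value. By that rule 7 of the 9 were measured, of 12393 genes in all. Dusp4 and Dusp5, which encode phosphatases that act on ERK in the nucleus, had no such probe set and were not analysed here. The 7 measured genes had 11 probe sets: 3 for Spred1, 2 each for Spry2 and Bcr, and 1 each for Dusp6, Spry1, Phlda1 and Abl1.

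Expression was measured on Affymetrix arrays in 3 groups of sorted mouse bone marrow cells of the strain C57/BL6, given as 12 weeks old. The first group held leukaemia-initiating cells without Ezh2 (Ezh2 KO CML LICs, 2 arrays), and the second held their wild-type counterparts (WT CML LICs, 3 arrays). Both kinds of LIC carried GFP, lacked lineage markers, expressed Sca1 and Kit, and came from a retroviral mouse model of chronic myeloid leukaemia (CML) 14 days after marrow transplantation. The third group, WT HSC, held LSK cells, which have the same lineage, Sca1 and Kit markers and are enriched for normal stem and multipotent progenitor cells (3 arrays). The labels call the repeats biological and do not give the oncogene in the retrovirus, the Cre or promoter behind the Ezh2 deletion, the sex of the animals or any pooling. The comparisons with LSK cells therefore hold transplantation, retroviral infection and leukaemia together, and these cannot be told apart.

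Growth factor receptors and the BCR-ABL kinase both pass signals through adaptors to RAS, and RAS activates the kinases RAF, MEK and ERK in turn. Active ERK phosphorylates transcription factors of the ETS and serum response families, and among the genes they switch on are inhibitors of the same pathway. Dusp6 encodes a cytoplasmic phosphatase that removes the activating phosphates from ERK, Sprouty proteins (Spry1, Spry2) and the Sprouty-related protein Spred1 act at or above RAF, and Phlda1 encodes a pleckstrin-homology-like protein induced by growth factors. RNA levels of these genes are often used as a readout of ERK output, though RNA does not measure the activity of the kinase. Bcr encodes a protein with kinase and GTPase-regulating domains and Abl1 a tyrosine kinase, and CML is defined by their fusion.

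Promoters are shown for the 3 measured feedback genes that hold the letters CGGAA, a form of an ETS site. ETS factors are among the direct targets of ERK. Each run has 300 bases, from 250 before to 50 after the gene's start, and was taken from RefSeq (GRCm38.p6, 5′ to 3′ on the gene's strand). The sources used here do not name the build behind the array's probes. Dusp6 lies on the plus strand at chr10:99262981-99263280, Spry2 on the minus strand at chr14:105896770-105897069 and Spred1 on the plus strand at chr2:117120821-117121120. Capitals mark the letters CGGAA on either strand.
Dusp6: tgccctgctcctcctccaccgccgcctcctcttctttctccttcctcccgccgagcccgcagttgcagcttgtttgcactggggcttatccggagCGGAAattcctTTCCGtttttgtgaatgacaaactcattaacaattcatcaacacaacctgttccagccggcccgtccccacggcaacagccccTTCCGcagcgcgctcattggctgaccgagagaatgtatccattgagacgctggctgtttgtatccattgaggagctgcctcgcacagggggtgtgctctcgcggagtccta
Spry2: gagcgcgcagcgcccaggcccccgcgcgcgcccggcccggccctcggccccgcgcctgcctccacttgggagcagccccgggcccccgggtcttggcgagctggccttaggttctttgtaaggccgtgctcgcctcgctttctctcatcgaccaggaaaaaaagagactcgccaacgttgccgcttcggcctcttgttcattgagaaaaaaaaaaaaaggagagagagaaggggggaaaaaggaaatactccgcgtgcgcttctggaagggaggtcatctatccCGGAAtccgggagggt
Spred1: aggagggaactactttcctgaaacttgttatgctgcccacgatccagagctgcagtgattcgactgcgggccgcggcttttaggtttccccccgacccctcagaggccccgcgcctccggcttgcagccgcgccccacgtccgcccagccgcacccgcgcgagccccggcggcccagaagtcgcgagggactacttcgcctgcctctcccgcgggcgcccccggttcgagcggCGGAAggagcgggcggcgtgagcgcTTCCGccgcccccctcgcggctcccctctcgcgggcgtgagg
The Dusp6 window held 3 matches to CGGAA, the Spred1 window 2 and the Spry2 window 1, while the windows of Spry1, Bcr and both starts of Abl1 held 0. The shorter letters GGAA were not counted or marked, and they do occur in the windows of Spry1, Bcr and Abl1. Of 32851 promoter windows of this length, 29.9% held at least 1 match. None of the windows of these 6 genes held the letters TGANTCA (AP-1, found in 7.81% of all windows), TGACGTCA (the cyclic AMP response element, 1.79%) or TTCNNNGAA (STAT, 8.3%) on either strand, or the CArG box bound by serum response factor (1.63%). A match is a description of the letters and does not show binding. Of the 9 listed genes 7 had a promoter in the RefSeq table, and Phlda1 was not among them. The Dusp5 window held 1 match to CGGAA and 2 matches to the CArG box.

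Array medians lay between 6.42 and 6.58 on the log2 scale, and the difference between the 3′ and 5′ control probe sets ranged from 0.66 to 0.96 for Gapdh and from 0.73 to 1.00 for Actb. Ezh2 was at 8.94 and 9.55 in Ezh2 KO LICs, against 11.33, 11.44 and 11.26 in WT LICs and 10.77, 10.95 and 11.07 in LSK cells (log2). It fell by 2.10 between Ezh2 KO and WT LICs (limma adjusted p = 0.00985). WT LIC replicate 3 stood apart from the other LIC arrays: Xist, transcribed from the inactive X chromosome, was at 4.35 there and between 10.68 and 11.18 on the other 4. Y-linked Eif2s3y was at 9.21 or higher on each of the 5 LIC arrays and at 1.63 or lower on the LSK arrays. The 3 LSK arrays had a summed signal of antibody-secreting cell markers (5 of 6 measured) between 12297 and 17446, against 1316 to 2026 on the LIC arrays (linear intensity). B-lineage markers (9 of 10 measured) summed to 7685 and 4783 in Ezh2 KO LICs, against 462 to 906 in WT LICs and 877 to 1304 in LSK cells. Their Pax5 and Cd22 were at or under background on each array. Erythroid markers (5 of 8 measured) summed to 473 and 165 in Ezh2 KO LICs, to 5515, 2572 and 91 in WT LICs and to 1723, 2685 and 2114 in LSK cells. The comparisons with LSK cells also hold the Eif2s3y difference, so sex-linked differences cannot be told apart from leukaemia there. The part of lineage differences, or of the low Xist array, in the results below was not tested.

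None of the 7 measured genes passed the test in any of the 3 comparisons. Genes were called at an adjusted p under 0.05 from 1 limma fit of all 8 arrays, with p adjusted by Benjamini-Hochberg over 12393 genes. Of all genes, 3.42% were called in WT LICs against LSK cells, 0.637% in Ezh2 KO against WT LICs, and 3.47% in Ezh2 KO LICs against LSK cells. At an unadjusted p under 0.05, 2 of the 7 members passed between WT LICs and LSK cells (Dusp6 and Bcr), against 20.6% of all genes. Between Ezh2 KO LICs and LSK cells 2 members passed unadjusted (Phlda1 and Bcr), against 19.2% of all genes, and between Ezh2 KO and WT LICs 0 passed, against 11.1%. These shares are of few genes, and a missed threshold does not show that levels were alike, so the 95% interval of each difference is given where it bears on the size.

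**Figure D1:**
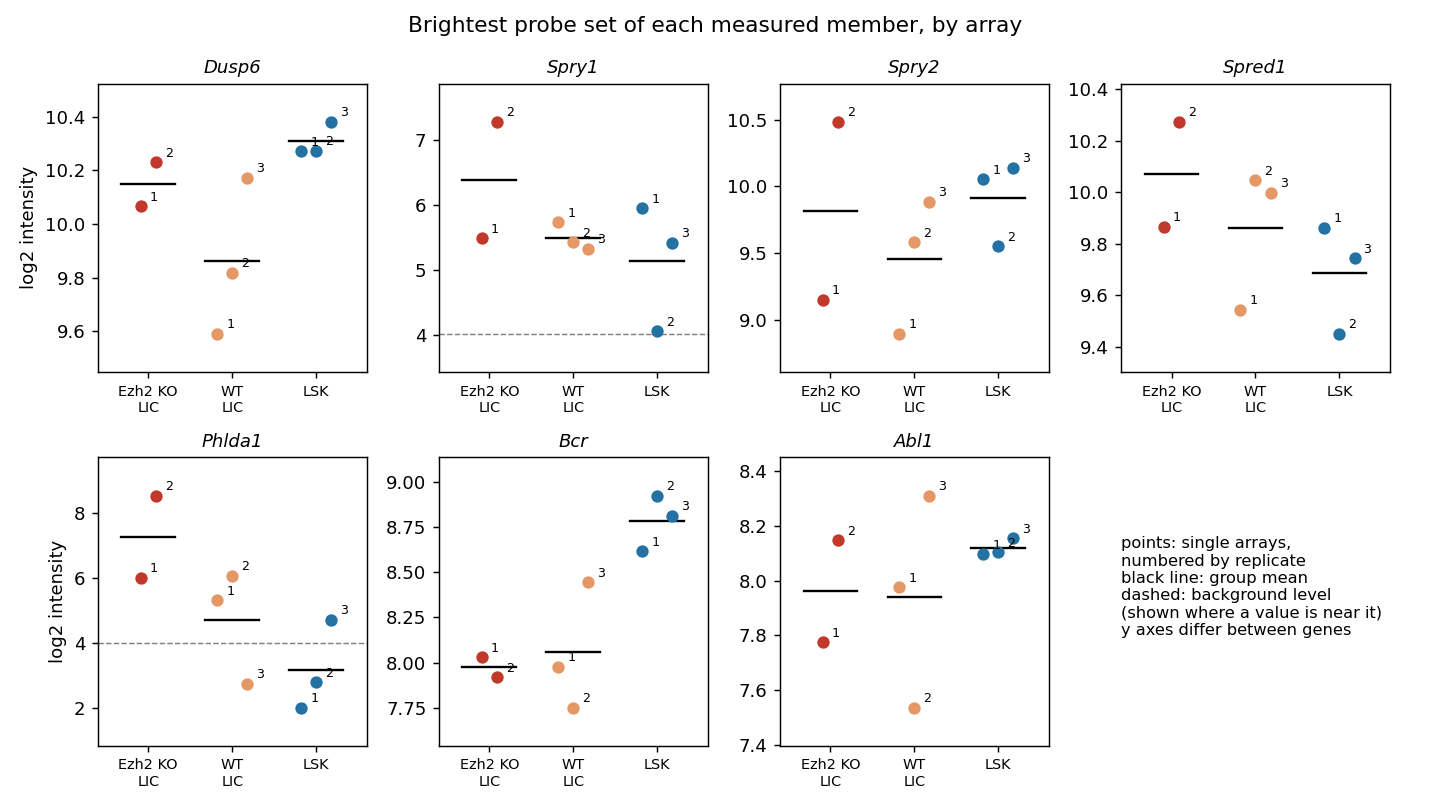
Log2 intensity of the brightest probe set of each measured gene on every array, with Ezh2 KO LICs at the left, then WT LICs, then LSK cells. Points are arrays numbered by replicate, black lines are group means, the dashed line is the background level of 4.01, and the vertical scale differs between genes. Bcr lay lower on all 5 LIC arrays than on the LSK arrays, and Phlda1 spread from 2.00 to 8.55.

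Dusp6, the ERK phosphatase, was slightly lower in WT LICs. Its log2 intensity was 9.59, 9.82 and 10.17 in WT LICs, against 10.27, 10.27 and 10.38 in LSK cells. The arrays did not overlap, but replicate 3 of WT LICs came close to the lowest LSK array. The difference was -0.45 (SE 0.17, limma adjusted p = 0.205), with a 95% interval of -0.85 to -0.04. In linear terms the interval runs from 0.554 to 0.971 of the LSK level, so its upper end lies close to no change. It is not adjusted for the number of genes and holds for this scaling only. With arrays centred on their medians the difference was -0.34 (SE 0.19, limma adjusted p = 0.314). Without WT LIC replicate 3 the difference was -0.60 (adjusted p = 0.0802). In sorted pools, fewer cells that express a gene and less RNA per cell cannot be told apart.

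In Ezh2 KO LICs Dusp6 lay between the other groups, at 10.07 and 10.23. These values overlapped with WT LICs and were under each LSK array. The difference was 0.29 from WT LICs (interval -0.17 to 0.74, limma adjusted p = 0.616) and -0.16 from LSK cells (interval -0.61 to 0.29, adjusted p = 0.716). The means were 10.15 ± 0.12 in Ezh2 KO LICs (SD, n = 2), 9.86 ± 0.29 in WT LICs (SD, n = 3) and 10.31 ± 0.06 in LSK cells (SD, n = 3). No neighbours in the order of these means passed the test.

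Spry1 and Spry2, inhibitors of receptor signalling to RAS and RAF, did not separate the groups. Spry2 was at 9.15 and 10.48 in Ezh2 KO LICs, at 8.90, 9.58 and 9.88 in WT LICs and at 10.05, 9.55 and 10.14 in LSK cells. The knockout arrays enclosed all 3 LSK arrays and 2 of the 3 WT LIC arrays. WT LICs differed from LSK cells by -0.46 (interval -1.39 to 0.46, limma adjusted p = 0.563) and Ezh2 KO from WT LICs by 0.36 (interval -0.67 to 1.40, adjusted p = 0.801). Without Ezh2 KO replicate 2, the difference between Ezh2 KO and WT LICs was -0.30, and without replicate 1 it was 1.03, so the remaining knockout array set its sign. The second Spry2 probe set was between 3.07 and 3.45 on 7 arrays, under the background level of 4.01, and at 4.50 on LSK replicate 2. That background level is the highest mean among 27 probe sets for bacterial transcripts that serve as controls.

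Spry1 was a dim signal in all groups. It was at 5.48 and 7.28 in Ezh2 KO LICs, at 5.73, 5.42 and 5.32 in WT LICs and at 5.95, 4.05 and 5.41 in LSK cells. One array, Ezh2 KO replicate 2, stood above the others, and LSK replicate 2 was close to background. The difference between Ezh2 KO and WT LICs was 0.89 (interval -0.63 to 2.41, limma adjusted p = 0.648), and without that knockout array it was -0.01. WT LICs differed from LSK cells by 0.35 (interval -1.002 to 1.71, adjusted p = 0.788), and by -0.19 without LSK replicate 2.

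Spred1, which brings the RAS inhibitor neurofibromin to the membrane, showed small differences by its brightest probe set. That probe set read 9.87 and 10.27 in Ezh2 KO LICs, 9.54, 10.05 and 9.997 in WT LICs and 9.86, 9.45 and 9.74 in LSK cells. The differences were 0.18 between WT LICs and LSK cells (interval -0.30 to 0.66, limma adjusted p = 0.688) and 0.21 between Ezh2 KO and WT LICs (interval -0.33 to 0.74, adjusted p = 0.775). Ezh2 KO LICs were above LSK cells without overlap, though the nearest arrays read 9.87 and 9.86, and the difference of 0.38 did not pass (adjusted p = 0.418).

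The 3 probe sets of Spred1 disagreed. The dimmest was at 9.01 and 9.43 in Ezh2 KO LICs, at 8.31, 8.83 and 8.23 in WT LICs and at 9.29, 8.76 and 9.27 in LSK cells. By this probe set WT LICs had the lowest mean, with a difference of -0.65 from LSK cells (SE 0.24, limma adjusted p = 0.195 in a fit of all probe sets with 1 gene symbol), and Ezh2 KO LICs lay above WT LICs without overlap, by 0.77 (SE 0.27, adjusted p = 0.386). The third differed by 0.01 between WT LICs and LSK cells and by 0.20 between Ezh2 KO and WT LICs. With the mean of all 3, WT LICs differed from LSK cells by -0.15 (adjusted p = 0.727), the opposite sign to the brightest probe set.

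**Figure D2:**
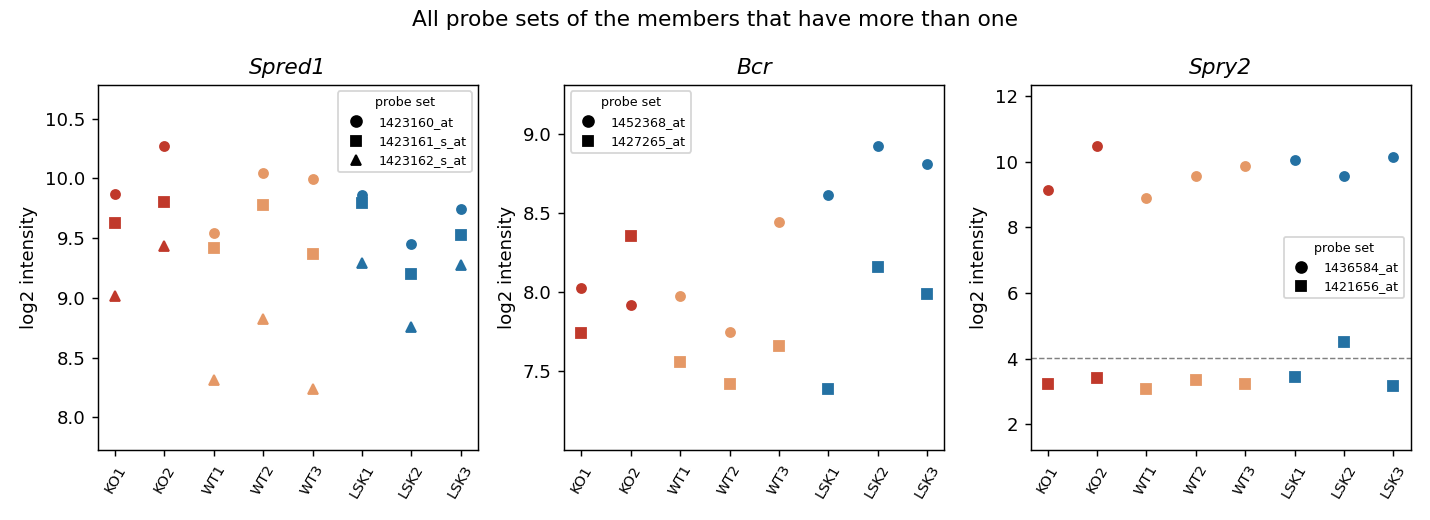
Log2 intensity of every probe set of Spred1, Bcr and Spry2 on each array, in the order Ezh2 KO LIC, WT LIC and LSK replicates; marker shapes are probe sets and the dashed line is the background level of 4.01. The dimmest Spred1 probe set dipped in WT LICs, the dimmer Bcr probe set did not follow the brighter one in LSK replicate 1 and Ezh2 KO replicate 2, and the second Spry2 probe set lay near or under background.

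Phlda1, induced by growth factors through ERK, varied most between arrays. It was at 6.02 and 8.55 in Ezh2 KO LICs, at 5.32, 6.07 and 2.75 in WT LICs and at 2.00, 2.78 and 4.72 in LSK cells. Both knockout arrays were above each LSK array, while WT LICs overlapped with both other groups. The knockout mean was at least 8.22-fold above LSK cells, of which 2 of 3 arrays were under background and were set to that level for this bound. The fitted difference was 4.12 (SE 1.22, interval 1.26 to 6.97, limma adjusted p = 0.12). In linear terms that interval starts at 2.40-fold. The 8.22-fold bound covers the dim arrays only and not the spread between arrays.

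Within LICs, Phlda1 differed by 2.57 between Ezh2 KO and WT LICs (SE 1.22, interval -0.28 to 5.43, limma adjusted p = 0.484). WT LIC replicate 3, the array with low Xist, was under background. Without it WT LICs differed from LSK cells by 2.53 (adjusted p = 0.203), against 1.55 with it (adjusted p = 0.473). Without Ezh2 KO replicate 2 the difference between Ezh2 KO and WT LICs was 1.31. Over 17 alternatives for each comparison none of the Phlda1 differences passed, with a lowest adjusted p of 0.0663.

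Immediate early genes are transcribed within minutes of a stimulus, which can be the handling of cells, and include ERK targets. Of the 8 measured, 2 rose in Ezh2 KO LICs relative to WT LICs. Fosb, a subunit of the AP-1 factor, rose to 7.03 and 9.52 in Ezh2 KO LICs, against 2.63, 2.68 and 3.20 in WT LICs, at least 19.3-fold (limma adjusted p = 0.0288). Atf3, a stress-induced factor, rose to 5.74 and 7.20 in Ezh2 KO LICs, against 3.12, 3.22 and 3.40 in WT LICs, at least 5.52-fold (adjusted p = 0.0178). None of the 8 fell, the other 6 did not pass, and the differences of the 8 ran from 0.0096 to 5.44, with a median of 3.16 against -0.05 over all genes. Most calls over all genes in that comparison were also rises, with 73 higher and 6 lower (0.637% called). Ezh2 KO replicate 2 was brighter than replicate 1 for all 8 of these genes, and for each measured member but Bcr. Among LSK arrays the SD of these genes ran from 0.06 (Ier2) to 2.10 (Fos) on the log2 scale. The part of handling in these rises, and of these genes in the Phlda1 values, was not tested. The Fosb call was lost under 6 of 17 alternatives, among them without Ezh2 KO replicate 2 (4.19), and the Atf3 call under 4 of 17.

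**Figure D3:**
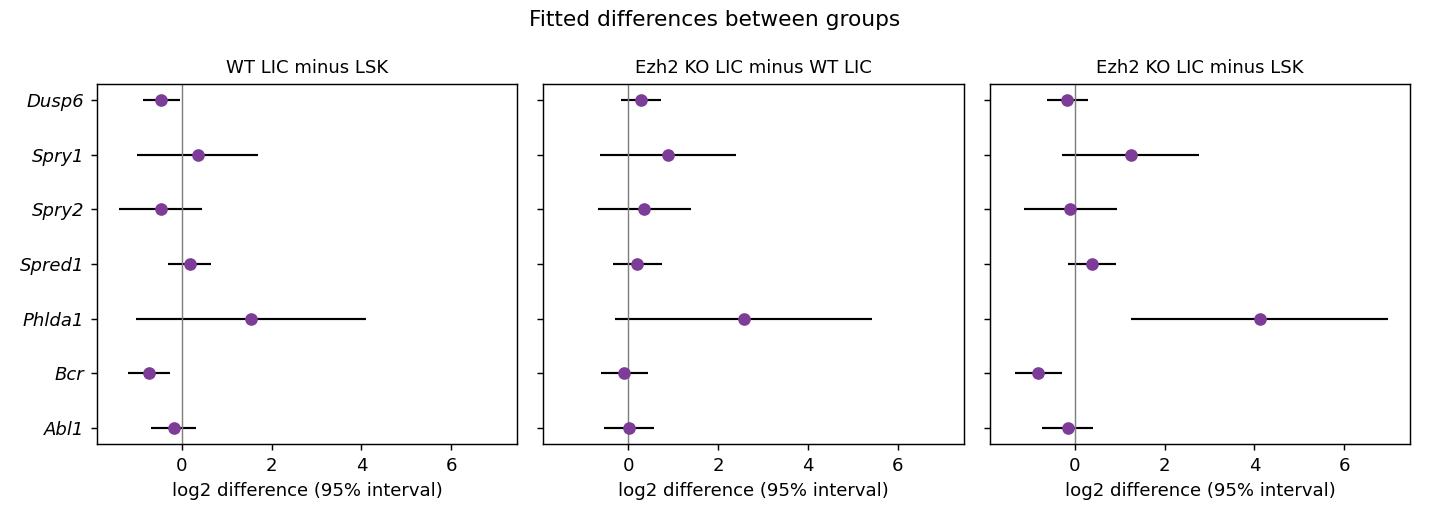
Fitted log2 differences of the 7 measured genes, with WT LICs minus LSK cells at the left, Ezh2 KO minus WT LICs in the middle and Ezh2 KO LICs minus LSK cells at the right; bars are 95% intervals. Intervals that exclude 0 are those of Dusp6 and Bcr in the left panel and of Phlda1 and Bcr in the right panel, and none of these passed after adjustment over all genes.

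Bcr, the 5′ partner of the fusion, was lower in both kinds of LIC by its brighter probe set. It was at 8.03 and 7.92 in Ezh2 KO LICs, at 7.98, 7.75 and 8.45 in WT LICs and at 8.62, 8.93 and 8.81 in LSK cells. All 5 LIC arrays lay under all 3 LSK arrays. The difference from LSK cells was -0.73 in WT LICs (SE 0.20, interval -1.20 to -0.26, limma adjusted p = 0.0966) and -0.81 in Ezh2 KO LICs (SE 0.22, interval -1.34 to -0.29, adjusted p = 0.0983). Both comparisons use the same 3 LSK arrays. Ezh2 KO and WT LICs differed by -0.08 (interval -0.61 to 0.44, adjusted p = 0.921).

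The Bcr result depended on 1 array and on the probe set. Without WT LIC replicate 3 the difference of WT LICs from LSK cells was -0.92 and passed (limma adjusted p = 0.0309), and that of Ezh2 KO LICs stayed at -0.81 and passed (adjusted p = 0.0464). The dimmer probe set was at 7.75 and 8.36 in Ezh2 KO LICs, at 7.56, 7.42 and 7.66 in WT LICs and at 7.39, 8.16 and 7.99 in LSK cells. It overlapped between LICs and LSK cells and differed by -0.30 in WT LICs (adjusted p = 0.568) and by 0.21 in Ezh2 KO LICs (adjusted p = 0.757), and by -0.35 and 0.21 without WT LIC replicate 3.

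Abl1, the 3′ partner, showed no separation. It was at 7.77 and 8.15 in Ezh2 KO LICs, at 7.98, 7.54 and 8.31 in WT LICs and at 8.10, 8.10 and 8.16 in LSK cells. The WT LIC arrays enclosed all 3 LSK arrays and both knockout arrays. WT LICs differed from LSK cells by -0.18 (interval -0.68 to 0.32, limma adjusted p = 0.703), and Ezh2 KO from WT LICs by 0.02 (interval -0.54 to 0.58, adjusted p = 0.984). The sources used here do not say whether the Bcr or Abl1 probe sets can read a retroviral BCR-ABL transcript, and these values give the level of the probed parts and do not check for the oncogene. The upper end of the interval for Abl1 signal in WT LICs over LSK cells was 1.253-fold, not adjusted for the number of genes. With arrays centred on their medians the difference was -0.07 (SE 0.22).

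Counted over the members, 2 of 7 were lower in WT LICs than in LSK cells without overlap (Dusp6 and Bcr), and 0 were higher. Over all genes 13.2% were lower and 13.5% higher without overlap in that comparison. Between Ezh2 KO LICs and LSK cells 2 were lower (Dusp6 and Bcr) and 2 higher (Spred1 and Phlda1), against 20.5% of all genes lower and 18.2% higher. Between Ezh2 KO and WT LICs 0 of 7 were higher or lower without overlap, against 13.2% of genes higher and 16.6% lower. Over the 7 the median was -0.18 for WT LICs against LSK cells, 0.29 for Ezh2 KO against WT LICs and -0.10 for Ezh2 KO LICs against LSK cells, beside 0.02, -0.05 and -0.02 over all genes.

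The members did not vary as 1 group across the 8 arrays. Pearson's r with Dusp6 was 0.74 for Spry2, 0.71 for Bcr, 0.58 for Abl1, 0.14 for Spred1, -0.05 for Spry1 and -0.29 for Phlda1. These coefficients describe 8 arrays that share 3 groups and a common normalization. Among 6195 genes with a mean above the median gene, the 5 most like Dusp6 were Elk3 (r = 0.99), Prkd3 (0.98), Selenop (0.98), Gimap6 (0.97) and Notch1 (0.97). Of these 6195 genes, 7.36% had a higher r than Spry2, 8.89% than Bcr, 15% than Abl1 and 41% than Spred1. The shares were 51.2% for Spry1 and 64.9% for Phlda1. Elk3 encodes an ETS factor that ERK phosphorylates and Notch1 a receptor of stem and lymphoid progenitor cells. With group means taken out, r with Dusp6 was 0.74 for Spry2, 0.64 for Spred1, 0.62 for Bcr, 0.59 for Abl1, 0.07 for Spry1 and -0.29 for Phlda1.

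The rest of the pathway was described from lists of receptors, adaptors, cascade kinases, brakes, targets and effectors. Among 12 measured receptors that feed RAS in progenitors, 2 fell in WT LICs relative to LSK cells and none rose. Kit, the stem cell factor receptor, was at 9.79, 9.81 and 9.69 in WT LICs, against 11.05, 10.90 and 10.92 in LSK cells, and fell by 1.19 (limma adjusted p = 0.00886). Csf2ra, a subunit of the GM-CSF receptor, fell by 1.11 (adjusted p = 0.0366), a call lost under 12 of 18 alternatives, while that of Kit was kept under all 18. Kit was itself used in the sort of all 3 groups. Some marker sums were also lower in LICs (linear intensity). Stem and multipotent progenitor markers (6 of 8 measured, Kit among the list) summed to 5809 and 7288 in Ezh2 KO LICs, 4455 to 6259 in WT LICs and 9330 to 9450 in LSK cells. Monocyte and macrophage markers (7 of 8 measured, with Csf1r, which is also in the receptor list) summed to 2285 and 2167 in Ezh2 KO LICs, 1384 to 3489 in WT LICs and 5385 to 5636 in LSK cells. Megakaryocyte and platelet markers (7 of 7 measured) summed to 522 and 456 in Ezh2 KO LICs, 343 to 660 in WT LICs and 1417 to 2380 in LSK cells. Each of these sums was lower on every LIC array than on every LSK array. Other sums were higher on each WT LIC array than on each LSK array. Neutrophil markers summed to 18596 to 21592 in WT LICs against 13732 to 15229 in LSK cells. Mast cell and basophil markers summed to 3864 to 8465 against 3324 to 3592, and T cell markers to 520 to 750 against 432 to 474. The part of all these markers in the receptor values was not tested. In Ezh2 KO LICs relative to LSK cells 3 of the 12 fell and 1 rose: Csf2ra fell by 1.93 (adjusted p = 0.01), Il3ra, a subunit of the interleukin 3 receptor, by 1.01 (adjusted p = 0.0397) and Kit by 0.78 (adjusted p = 0.0455), and Csf2rb, the shared beta subunit of these cytokine receptors, rose by 1.76 (adjusted p = 0.0354). The list medians were -0.30 in WT LICs and -0.54 in Ezh2 KO LICs against LSK cells, beside 0.02 and -0.02 over all genes. Between Ezh2 KO and WT LICs 0 of 12 were called. Of the calls in Ezh2 KO LICs, Csf2ra was lost under 2 of 18 alternatives, Csf2rb under 8, Kit under 10 and Il3ra under 11.

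Of 18 measured adaptors and exchange factors that link receptors to RAS, 1 fell and none rose in WT LICs relative to LSK cells. Their differences ran from -2.12 to 0.66 with a median of -0.28, beside 0.02 over all genes, of which 3.42% were called. Gab1, a docking protein for the phosphatase SHP2, was at 6.47, 5.93 and 7.26 in WT LICs, against 8.08, 9.13 and 8.82 in LSK cells, and fell by 2.12 (limma adjusted p = 0.0323). That call was lost under 8 of 18 alternatives. None of the 18 was called in Ezh2 KO LICs against LSK cells or against WT LICs, where 3.47% and 0.637% of all genes were called. Among 13 measured members of the RAS-RAF-MEK-ERK cascade and its scaffolds, Rras, a RAS-related GTPase, was at 7.11 and 6.55 in Ezh2 KO LICs, at 6.69, 6.56 and 6.63 in WT LICs and at 7.96, 7.88 and 8.11 in LSK cells. It fell by 1.36 in WT LICs (adjusted p = 0.0108) and by 1.15 in Ezh2 KO LICs (adjusted p = 0.0269), and was the only 1 of the 13 called in those comparisons, with none called between Ezh2 KO and WT LICs. The Rras call in WT LICs was kept under all 18 alternatives, and that in Ezh2 KO LICs was lost under 7.

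Of 26 other brakes on RAS and ERK, none was called between WT LICs and LSK cells or between Ezh2 KO and WT LICs. One fell in Ezh2 KO LICs relative to LSK cells: Rasa4, a GTPase-activating protein for RAS, was at 6.11 and 5.94 in Ezh2 KO LICs, against 7.16, 7.71 and 7.94 in LSK cells (difference -1.58, limma adjusted p = 0.025). That call was lost under 6 of 18 alternatives. Of all genes 3.47% were called in that comparison. The nearest relatives of the members did not pass. Spred2 differed by 0.19 between WT LICs and LSK cells (adjusted p = 0.816) and by 0.20 between Ezh2 KO and WT LICs (adjusted p = 0.884). Dusp1, a nuclear phosphatase that is itself an immediate early gene, was at 11.12 and 12.07 in Ezh2 KO LICs, at 9.50, 9.31 and 10.04 in WT LICs and at 10.46, 10.96 and 10.98 in LSK cells. Its difference of 1.98 between Ezh2 KO and WT LICs missed the threshold (adjusted p = 0.0698), without overlap of the arrays. These relatives and Dusp1 were chosen after their values were seen.

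Other transcripts that ERK induces had few calls in Ezh2 KO LICs, all of them rises. Of 26 measured, 1 rose and none fell relative to WT LICs, and 3 rose and none fell relative to LSK cells. Over all genes 0.637% were called relative to WT LICs, 73 of them higher and 6 lower. Relative to LSK cells 3.47% were called, 200 of them higher and 230 lower. Epha2, an ephrin receptor, was at 6.29 and 6.28 in Ezh2 KO LICs, at 3.26, 4.41 and 3.58 in WT LICs and at 3.66, 3.09 and 3.77 in LSK cells, at least 4.41-fold above WT LICs (limma adjusted p = 0.0289) and at least 4.84-fold above LSK cells (adjusted p = 0.0115). Egr2, a zinc finger factor induced by ERK, was at 7.47 and 8.04 in Ezh2 KO LICs, 6.43, 6.08 and 3.78 in WT LICs and 3.23, 4.11 and 4.02 in LSK cells, with Ezh2 KO LICs at least 13.1-fold above LSK cells (adjusted p = 0.0359). Lif, a cytokine, was at 6.58 and 6.30 in Ezh2 KO LICs, 6.58, 5.23 and 4.14 in WT LICs and 3.37, 3.47 and 3.71 in LSK cells, with Ezh2 KO LICs at least 5.4-fold above LSK cells (adjusted p = 0.0463). WT LICs differed from LSK cells by 1.64 for Egr2 (adjusted p = 0.22) and by 1.80 for Lif (adjusted p = 0.116), and neither gene was called between Ezh2 KO and WT LICs (adjusted p = 0.309 for Egr2 and 0.529 for Lif). The list median was 0.63 between Ezh2 KO and WT LICs, also without the 4 genes shared with the immediate early and brake lists, and 0.04 between WT LICs and LSK cells, where 0 of 26 were called. Against LSK cells the Epha2 call was lost under 3 of 17 alternatives and those of Egr2 and Lif under 8 each, and against WT LICs the Epha2 call was lost under 8. Fosb and Atf3, given above, were also higher on the knockout arrays, and the part of immediate early genes in this list was not tested.

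**Figure D4:**
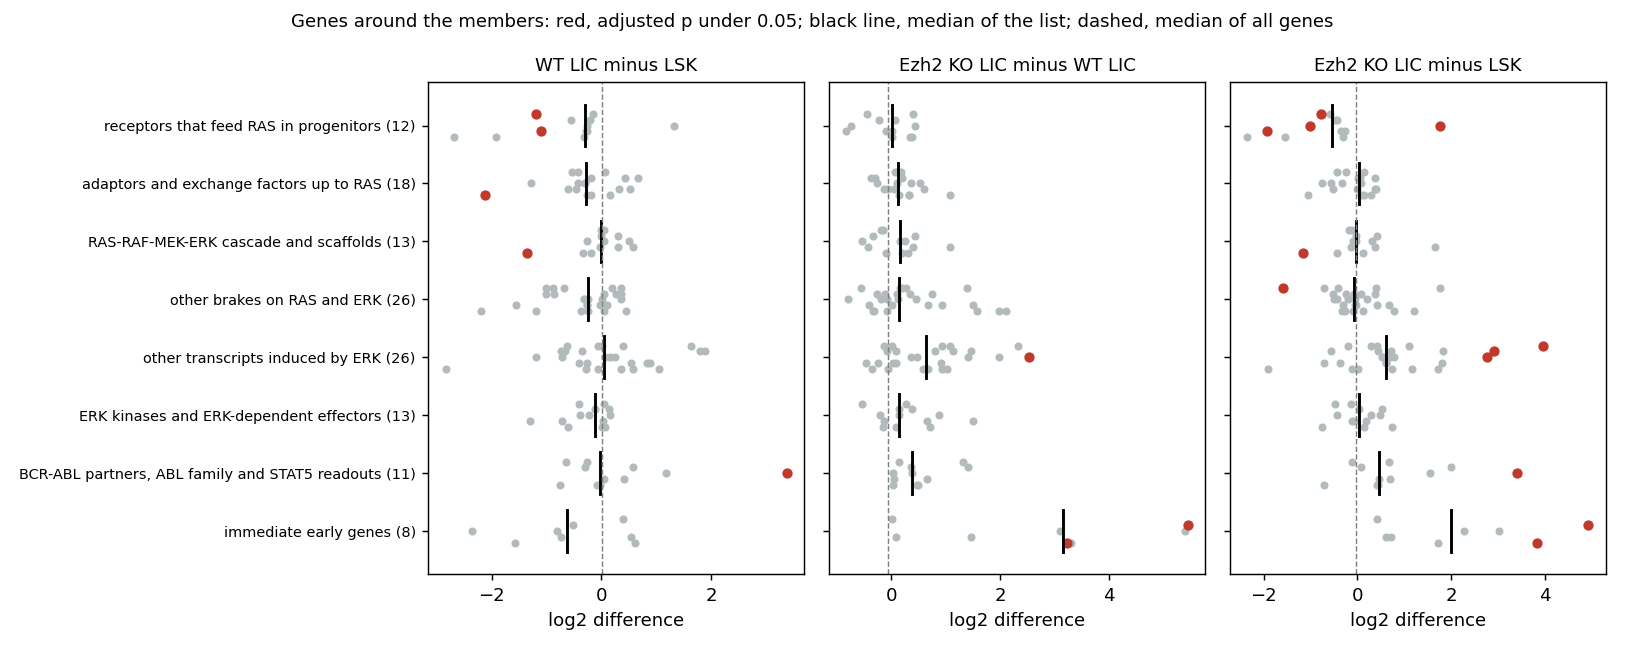
Log2 differences of the genes in each pathway list, with WT LICs minus LSK cells at the left, Ezh2 KO minus WT LICs in the middle and Ezh2 KO LICs minus LSK cells at the right; points are genes, red points passed at an adjusted p under 0.05, black lines are list medians, dashed lines are the medians of all genes, and the number of measured genes follows each name. The median of the 8 immediate early genes lies furthest to the right in the middle panel, at 3.16, and 1 red point, Socs2 at 3.38, stands far from the others of its list in the left panel.

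Kinases and factors downstream of ERK showed no call among 13 measured in any of the 3 comparisons. Among 11 measured partners of BCR-ABL, ABL relatives and STAT5 readouts outside the members, Socs2 alone was called. Socs2, a feedback inhibitor that STAT5 induces, was at 11.57 and 11.90 in Ezh2 KO LICs, at 11.38, 11.70 and 12.04 in WT LICs and at 7.82, 8.63 and 8.53 in LSK cells. It rose by 3.38 in WT LICs (limma adjusted p = 0.00163) and by 3.41 in Ezh2 KO LICs (adjusted p = 0.0031) relative to LSK cells. Both calls were kept under all 18 alternatives. Of all genes 3.42% and 3.47% were called in these comparisons. A difference between STAT5 and ERK feedback transcripts was not tested.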

How the data were processed

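Total RNA of sorted cells was amplified, labelled with biotin and hybridised to Affymetrix arrays, per the labels' protocols. The deposited table held linear intensity values for 22690 probe sets on 8 arrays, from 1.94 to 19343.1, made with RMA per the submitters' processing notes; the design had assumed log2 values, so log2 was taken of the deposited intensity with no pseudocount and the planned test was kept. Once 64 control probe sets were removed, 20380 carried a single gene symbol, 691 more than 1, and 1555 had no entry in the annotation; promoter windows of 1 chromosome were not used here. The probe set with the highest mean over all arrays stood for each of 12393 genes. Groups were compared in 1 limma fit (version 3.58.1, R 4.3.3; lmFit and eBayes, group as the only term, 5 residual degrees of freedom, 2-sided), with Benjamini-Hochberg adjustment over all genes and calls at an adjusted p under 0.05. The procedure was tested on simulated data. The number of arrays limits the precision, and an exact permutation test of 1 gene could not go below p = 0.1 with 3 arrays against 3 or 2 against 3. The members and pathway lists were chosen with earlier results of these data known. All members were named, and from each list every gene called, up to 4 by smallest p, with exceptions stated in the text. "At least" folds set dim arrays to the background level of 4.01, and are no bound on the spread between arrays. Alternatives covered scaling, pseudocount, dim genes, array weights, variance prior, arrays in the fit, probe sets per gene, replicate block and each array left out. Replicate numbers were not used to pair the arrays in the main fit.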

Additional observations from a re-analysis of the deposited data

How the results depend on the processing

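The 7 measured genes had no call under any alternative between Ezh2 KO and WT LICs. Bcr was the 1 member called elsewhere: in WT LICs against LSK cells with array weights and without WT LIC replicate 3, and in Ezh2 KO LICs against LSK cells without WT LIC replicate 3, so the member counts ranged from 0 to 1 over the fits that left out an array. Counts over all genes moved more. Between Ezh2 KO and WT LICs, 79 genes were called, against 32 above the 40th percentile of mean level, 119 with array weights, 35 in a fit of the compared groups alone, and 25 to 146 with each array left out. Between WT LICs and LSK cells, 424 were called, against 917 with array weights and 176 to 643 with each array left out (643 without WT LIC replicate 3). Between Ezh2 KO LICs and LSK cells, 430 were called, against 118 to 643 with each array left out. The cause of these shifts was not tested.

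With the replicate block, 36 genes were called in Ezh2 KO against WT LICs, 252 in WT LICs against LSK cells and 147 in Ezh2 KO LICs against LSK cells. Same-numbered arrays correlated between -0.05 and 0.14 in their deviations from the group means, and differently numbered arrays between -0.14 and 0.10. With 2 or 3 arrays per group these deviations depend on each other, so the values cannot decide whether same-numbered arrays were paired. The block turned Bcr between Ezh2 KO and WT LICs to 0.0201 and Spry2 between Ezh2 KO LICs and LSK cells to 0.0663.

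Other signs turned only among differences that had not passed. Bcr between Ezh2 KO and WT LICs was 0.0736 with array weights, 0.21 with the mean of its probe sets and -0.24 to 0.11 with each array left out. Spred1 between WT LICs and LSK cells was -0.15 with the mean of its probe sets. With each array left out, Spry1 ranged from -0.0085 to 1.79 and Spry2 from -0.30 to 1.03 between Ezh2 KO and WT LICs, and Abl1 from -0.18 to 0.21. Against LSK cells, Spry2 ranged from -0.76 to 0.57 and Abl1 from -0.34 to 0.0295 in Ezh2 KO LICs, and Abl1 from -0.36 to 0.0249 and Spry1 from -0.19 to 0.76 in WT LICs. With arrays centred on their medians, the all-gene median in WT LICs against LSK cells was 0.13, and 0.02 as reported. The filter on dim genes left no value for Spry1 and Phlda1. Both are dim, and Phlda1 was at or under background on 3 of the 8 arrays.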
